A study of Mus musculus with 2 samples.

Results

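Wnt ligands, R-spondins and secreted Wnt antagonists were compared in a calf muscle, the gastrocnemius, of 2 mice: 1 depleted of PDGFRα-positive mesenchymal progenitors and 1 control. The set was defined by gene name as Wnt4, Wnt5a, Wnt11, Rspo1, Rspo3, Sfrp1, Sfrp2, Sfrp4, Dkk3 and Frzb, and a probe belonged to it where the platform's annotation gives it one of these symbols. Probes were found for 9 of the 10 genes, 1 probe each, among 19321 named genes on the array. Wnt11 was not analysed here. All 9 measured genes were above background, as defined below, on at least 1 array, and 8 of them on both.

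All 9 had a lower normalized value in depleted muscle, but the size of the difference set the genes apart. Sfrp4, which encodes a secreted Wnt-binding protein, was 2.09-fold lower after normalization and 4.46-fold lower in the authors' processed values. Frzb, which encodes a related protein also called secreted frizzled-related protein 3, was 1.53-fold lower after normalization and 2.56-fold lower in the processed values. The normalized differences of the other 7 genes lay between 1.05-fold and 1.15-fold, that of Rspo1 being only a lower bound. In the processed values those with 2 values were between 1.12-fold (Rspo3) and 1.68-fold (Wnt5a) lower. The place of Rspo1 depends on the processing. With the mean of the blank spots subtracted its log2 ratio was -2.64, beside -2.16 for Sfrp4, from a depleted spot not above background.

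Wnt proteins are lipid-modified secreted ligands that bind Frizzled receptors. With the co-receptors Lrp5 and Lrp6 they stabilise β-catenin, which enters the nucleus and acts with TCF and LEF factors; through other co-receptors such as Ror2 they act on cell polarity and movement. R-spondins bind Lgr receptors and raise the amount of Frizzled at the cell surface, and secreted frizzled-related proteins bind Wnt ligands outside the cell. In skeletal muscle, Wnt signals act on muscle stem cells and on the interstitial mesenchymal cells that can form fat and fibrous tissue.

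Both samples came from female mice aged 10 weeks. The control was labelled wild type:R26-DTA, and carried the diphtheria toxin A gene at the Rosa26 locus without the recombinase. The depleted mouse was labelled Pdgfra-CreER:R26-DTA, in which a tamoxifen-activated Cre recombinase made under the Pdgfra promoter switches the toxin on and kills the cell. Per the labels' protocols, tamoxifen was given to both from week 9 on 5 days, and the tissue was taken 2 days later. The Pdgfra promoter is not particular to muscle interstitium, so cells of other tissues that use it could be depleted too. The question was which genes differ in whole muscle after the loss of these cells.

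Each group held 1 array, so there are no replicates, no p-values and no measure of the spread between animals. Array, animal and genotype cannot be told apart, and neither can the presence of CreER and the loss of cells. In whole muscle, fewer cells of a type and less RNA per cell cannot be told apart either.

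The levels given first are spot intensities, the median pixel of a spot on a linear scale. The level without signal was taken from 2736 blank spots per array, whose mean was 36.3 (SD 0.58) on the control array and 37.0 (SD 0.78) on the depleted array. Above background here means more than 2 SD over the blank mean, a limit of 37.4 in control and of 38.5 in depleted muscle. The negative control spots reached 40.2 in control and 43.2 in depleted muscle. Their medians, 37.3 and 38.3, lay just below these limits. A probe counted as above background therefore need not have had a signal of its gene. The median probe was at 53.3 and 59.8, so the depleted array was brighter as a whole. The deposited values, given second, are the authors' processed intensities, which have a median of 25 on both arrays and in which the SD of the blank spots corresponds to 0.739 in control and 0.730 in depleted muscle. Normalized log2 ratios, given last, are depleted over control after background correction with an offset and quantile normalization over all probes. The offset draws the ratios of dim spots toward 0, and all members were dim to moderate, so the deposited and the normalized ratio of a gene can differ severalfold. Given its control level, a member could reach at most the lowest depleted value above background: this allowed 2-fold lower for 4 of the 9 members (Rspo3, Wnt4, Sfrp4 and Frzb), but a log2 ratio of no less than -0.18 for Rspo1, -0.16 for Wnt5a and -0.53 for Sfrp2. Of all genes compared, 36.9% could reach 2-fold lower.

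**Figure D1:**
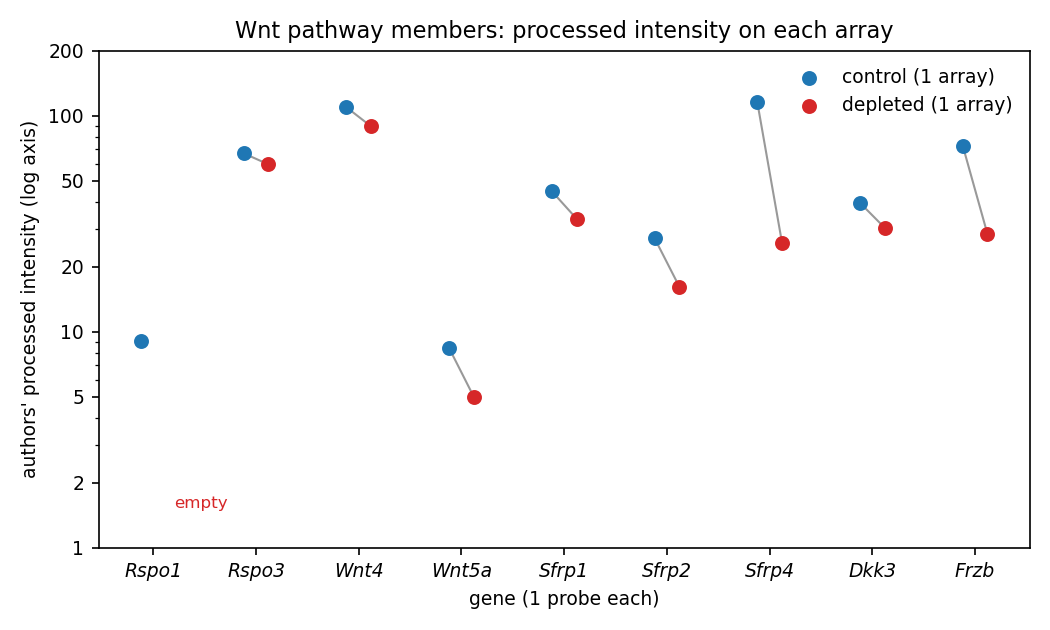
Authors' processed intensity (log axis) of the 9 measured genes on the control array (blue) and the depleted array (red), 1 array per group and 1 probe per gene, with a line joining the values of a gene. Each of the 8 genes with both values was lower in depleted muscle, Sfrp4 from 115.4 to 25.9 and Frzb from 72.6 to 28.4; the depleted value of Rspo1 was left empty in the authors' table.

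Among 18498 genes above background on at least 1 array, 52.4% had a normalized log2 ratio below 0 and 47.4% one above 0. At least 1.5-fold lower were 1.52% of them, and 0.427% were 2-fold lower or more. Of the 9 members, 9 were below 0, 2 passed 1.5-fold and 1 passed 2-fold. With scaling to the median, Frzb missed 1.5-fold (-0.53) and Sfrp4 missed 2-fold (-0.96). None was 1.5-fold higher, against 1.96% of all genes, and so none was 2-fold higher, against 0.492%. The median normalized log2 ratio of the members was -0.18, beside a median of 0 to 2 decimals over all genes compared. In deposited values all 8 members with both values were lower, against 50.7% of 17919 genes, and 2 of the 8 were lower by 2-fold or more, against 1.98%. In these values the members' median log2 ratio was -0.58 and that of all genes -0.01. The members were chosen with earlier results of these data known, so the shares of all genes describe them and test nothing.

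The spread that the arrays themselves show is of the size of most of these differences. Each probe had 1 spot, but 2 positive controls were spotted 24 times each, and over the 24 positions the log2 ratio of the uncorrected spots had an SD of 0.14 for one control and 0.15 for the other. Both controls were brighter on the depleted array, with median log2 ratios of 1.09 and 0.78, while the median probe was higher there by 0.17; what the controls hold is not given in the sources used here. For 382 genes with several probes as bright as the members, the ratios of the 2 brightest probes differed by a median of 0.08 and by at most 0.31 in 95% of the genes. The ratios of Sfrp4 (-1.07) and Frzb (-0.61) were larger in size than each of these spreads. The ratios of 6 other members, from -0.20 to -0.08, lay inside the last of them, and Rspo1, known only as a bound, cannot be placed. None of these spreads includes the difference between 2 animals.

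Of the ligands, Wnt4 acts through both β-catenin and other routes and is made by several tissues during development. Its spot was at 122.3 on the control and 132.1 on the depleted array, and its deposited values were 109.5 and 89.3. The spot itself was thus brighter in depleted muscle, and the value was lower once the greater brightness of that array was taken into account. The normalized log2 ratio of Wnt4 was -0.20, and scaling each array to its median in place of quantile normalization gave -0.03. Wnt5a, the ligand best known for signalling through Ror2, was dim on both arrays, with spots of 42.8 and 42.3. Its deposited values were 8.4 and 5.0, a 1.68-fold difference, while its normalized log2 ratio was -0.08. The Wnt5a spot lay above all negative control spots in control muscle and below the highest of them in depleted muscle.

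The other Wnt ligands were mostly dim. Of 16 ligands besides Wnt4, Wnt5a and Wnt11, 14 were above background on at least 1 array; Wnt7b and Wnt8a were not above it on either. Of these 14, 13 had a ratio below 0, with a median of -0.05 and no value at or past 1.5-fold. With the local background column subtracted the ligands other than the members were divided evenly, 7 lower and 7 higher. Wnt5b, a close relative of Wnt5a, was at -0.15 (deposited values 40.5 and 30.9), Wnt6 at -0.14 (25.6 and 17.9) and Wnt2b at -0.09 (11.5 and 7.3). Wnt1 and Wnt10b, picked out after their values were seen, were more than 2-fold lower in deposited values, from 4.4 to 1.7 and from 5.7 to 2.5. On the spot scale both genes lay below the highest negative control of the depleted array, at 39.7 and 38.8 for Wnt1 and 40.7 and 39.6 for Wnt10b. No ligand differed after normalization by as much as Sfrp4 or Frzb, but dim ligands could not have been lower by as much. Wnt1, Wnt2b and Wnt6 had normalized log2 levels of 5.80, 5.96 and 6.24 in control muscle. The lowest value above background on the depleted array was 5.73.

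The 2 R-spondins of the set differed in whether they could be measured. Rspo1 was at a spot intensity of 43.4 in control muscle, 12.3 blank SDs above the blank mean, and at 38.1 in depleted muscle, 1.42 blank SDs above it. It was therefore not above background in depleted muscle, where its deposited value was empty. In control muscle that value was 9.1. Set against the lowest value above background on the depleted array, Rspo1 was at least 1.13-fold lower after normalization. Its log2 ratio was -2.64 with the blank mean subtracted and -2.03 with the local background column subtracted. Sfrp4 was at -2.16 and -1.83 in these settings. Such ratios of Rspo1 rest on a depleted spot not above background. Rspo3 had spots of 88.9 and 100.5 and deposited values of 67.0 and 59.6, a 1.12-fold difference. Its normalized log2 ratio of -0.10 turned to 0.02 with scaling to the median and to 0.10 with the local background column subtracted, so its direction is not settled. Rspo2 and Rspo4, the remaining R-spondins, were at 0.01 and 0.04, with deposited values of 1.4 and 1.7 for Rspo2 and 8.6 and 10.5 for Rspo4; both were below 0 with scaling to the median, at -0.09 and -0.01.

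Among the members measured on both arrays, the antagonists Sfrp4 and Frzb had the largest normalized differences. Sfrp4 belongs to the secreted frizzled-related proteins, which carry a Frizzled-like cysteine-rich domain. Its spot was at 126.9 in control and 64.5 in depleted muscle, or 90.7 and 27.6 above the blank mean. Its spot was darker on the depleted array although that array was brighter as a whole. Its deposited values were 115.4 and 25.9, and at least 4-fold lower values were found for 0.162% of all genes with both values. Its normalized log2 ratio was -1.07, and it was the only member at least 2-fold lower. Scaling to the median gave -0.96, just short of 2-fold. Sfrp4 was below 0 under 11 of 11 alternatives. Those that changed only the filter or averaged the probes of a gene could not alter its ratio. It has 1 probe, above background on both arrays, and stayed at -1.07.

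Frzb was at 93.3 in control and 67.2 in depleted muscle, and it too had a darker spot on the brighter array. Its deposited values were 72.6 and 28.4 and its normalized log2 ratio was -0.61. A smaller offset of 16 gave -0.95, subtraction of the blank mean -1.37 and subtraction of the local background -1.75, while scaling to the median gave -0.53, which is under 1.5-fold. Frzb was below 0 under 11 of 11 alternatives, of which the filters and the probe mean could not alter its ratio. In the main setting 1.40% of all genes had a lower normalized ratio; for Sfrp4 this share was 0.341%.

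**Figure D2:**
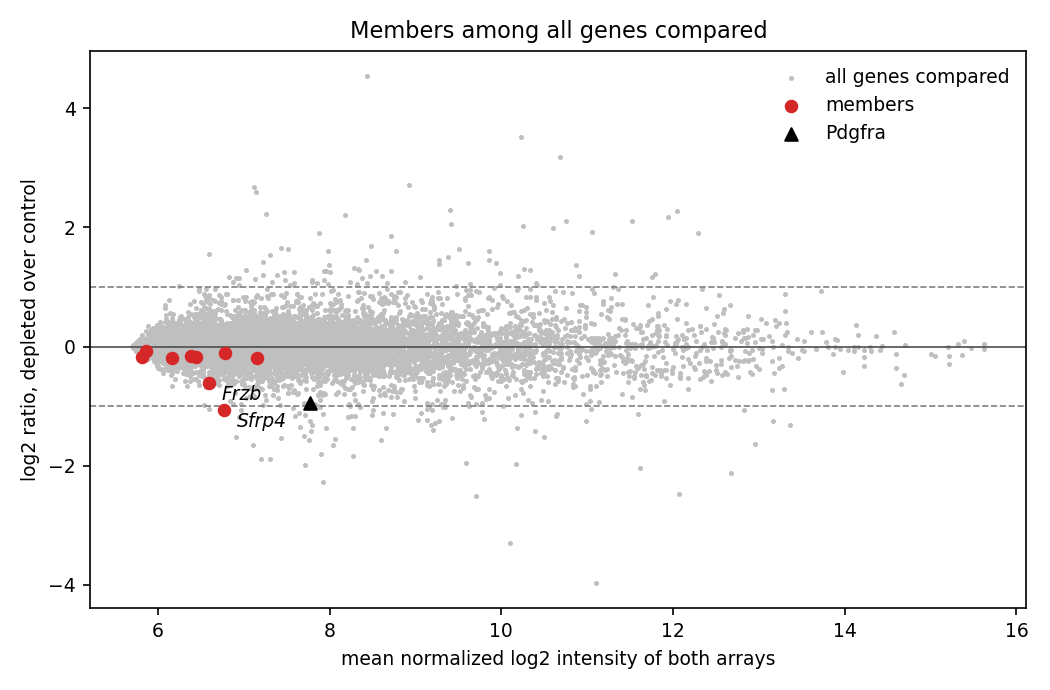
Normalized log2 ratio, depleted over control, against the mean normalized log2 intensity of both arrays for the 18498 genes compared (grey), the 9 members (red) and Pdgfra (black triangle); dashed lines mark 2-fold. Sfrp4 at -1.07 lies just past the lower line, Frzb at -0.61 lies between that line and 0, and the other 7 members lie between -0.20 and -0.08.

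Sfrp1 and Sfrp2, which belong to another branch of the family than Sfrp4 and Frzb, differed less. Sfrp1 had spots of 71.4 and 72.6, deposited values of 44.7 and 33.4 (1.34-fold lower) and a normalized log2 ratio of -0.17. Sfrp2 had spots of 57.6 and 54.3, deposited values of 27.1 and 16.2 (1.67-fold lower) and a ratio of -0.20. Dkk3, a Dickkopf family protein that, unlike its relatives, has no settled role in blocking Lrp6, had spots of 67.3 and 69.2, deposited values of 39.5 and 30.3 (1.30-fold lower) and a ratio of -0.15. Each of these 3 genes was lower under 11 of 11 alternatives, but by less than 1.5-fold in the main setting. The filters and the probe mean, counted among the 11, could not alter their ratios.

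Promoter sequences of 5 of the 10 genes, Frzb, Sfrp2, Rspo1, Wnt4 and Wnt11, were matched by symbol in a RefSeq table of build GRCm38.p6; Rspo3, Wnt5a, Sfrp1, Sfrp4 and Dkk3 were not matched. The 250 bases before the annotated start are shown for Frzb and Sfrp2, as the antagonists with a lower value for which the table holds a sequence. They were searched on both strands for CTTTGA, a core that TCF and LEF factors bind, for CCAAT and for TATAAA; capitals mark a match to any of these, and the motifs do not overlap here. The Frzb window lies on the minus strand at chr2:80447397-80447646 and the Sfrp2 window on the plus strand at chr3:83766071-83766320.
Frzb: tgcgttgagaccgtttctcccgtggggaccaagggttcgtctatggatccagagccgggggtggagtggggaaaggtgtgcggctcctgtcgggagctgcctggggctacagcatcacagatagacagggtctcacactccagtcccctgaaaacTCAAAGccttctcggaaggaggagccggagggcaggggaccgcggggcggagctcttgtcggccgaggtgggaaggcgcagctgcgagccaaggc
Sfrp2: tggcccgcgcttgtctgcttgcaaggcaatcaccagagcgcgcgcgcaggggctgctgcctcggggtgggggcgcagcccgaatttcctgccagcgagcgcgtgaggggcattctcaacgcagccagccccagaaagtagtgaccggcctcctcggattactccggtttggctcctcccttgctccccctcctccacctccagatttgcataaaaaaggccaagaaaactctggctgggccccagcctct

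The Frzb window holds CTTTGA once, on the strand opposite to the gene, beginning 95 bases before the start; the Sfrp2 window holds none of the 3 motifs. CTTTGA was found in 13.8% of 32851 promoter windows of the same length, CCAAT in 33.8% and TATAAA in 12.4%. Both windows were rich in G and C, at 64.4% for Frzb and 63.6% for Sfrp2, against a median of 52.4% over all windows. The match is a description of the letters only.

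**Figure D3:**
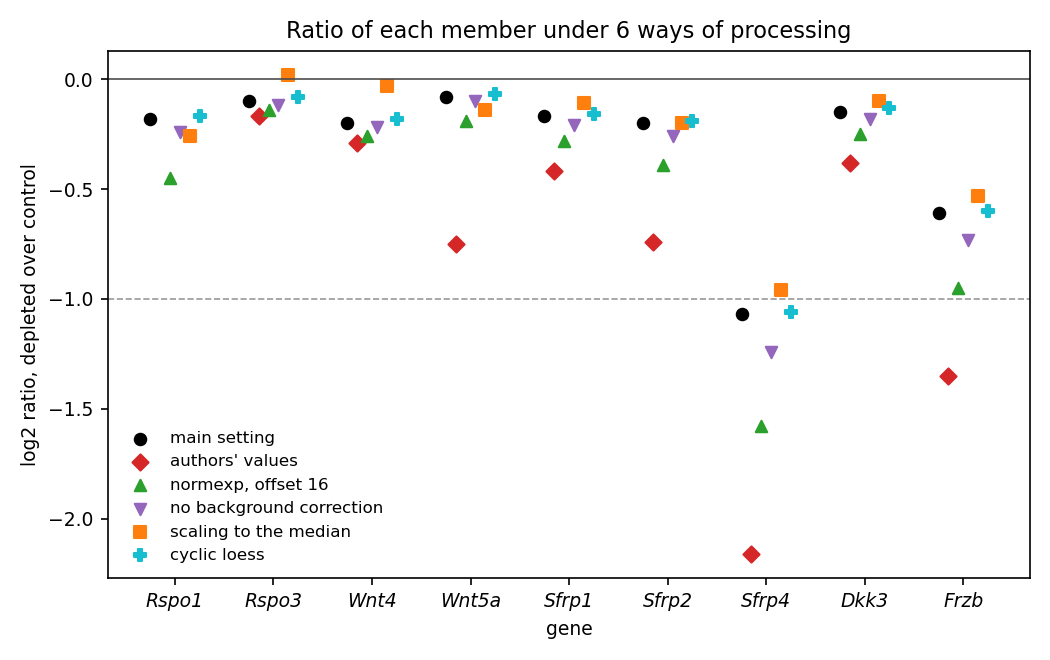
Log2 ratio, depleted over control, of each member in the main setting (black circles) and under 5 alternatives (other symbols); the dashed line marks 2-fold, and the ratio of Rspo1 in the authors' values is left out because 1 of its values is empty. Sfrp4 spans -0.96 to -2.16 and Frzb -0.53 to -1.35 over these settings, and Rspo3 crosses 0 with scaling to the median.

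The secreted antagonists outside the set showed no difference of that size. Of 11 such genes, 10 were above background on at least 1 array, Dkk4 being the exception, and 7 of the 10 were below 0, with a median of -0.02 and none at or past 1.5-fold. With the local background column subtracted 3 were lower and 7 higher. The family member Sfrp5 was at -0.16 (deposited values 67.6 and 55.1), the Wnt inhibitory factor Wif1 at -0.15 (35.6 and 26.5) and Dkkl1 at -0.07 (23.6 and 19.6). Dim genes such as Dkkl1, at a normalized log2 level of 6.20 in control muscle, could not have been lower by as much as Frzb. The lowest value above background on the depleted array was 5.73.

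Genes that Wnt-producing cells use to release the ligands were also read. Porcn, which attaches the lipid to Wnt proteins, was at 0.01 with deposited values of 65.1 and 67.0. Wls, which carries Wnt proteins to the cell surface, was at -0.20 with deposited values of 161.4 and 133.3, and at 0 to 2 decimals with scaling to the median.

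The Frizzled receptors and co-receptors were evenly divided. Of 16 genes, all above background on at least 1 array, 8 were lower and 8 higher, none by 1.5-fold, with a median of 0 to 2 decimals. The co-receptor Lrp6 was at -0.21 (deposited values 71.6 and 54.8) and Lrp5 at 0.04 (26.1 and 28.6). Ror2, the Wnt5a co-receptor, was at -0.20 (29.7 and 18.8), the endothelial receptor Fzd4 at 0.12 (195.2 and 219.4) and the Wnt-binding pseudokinase Ryk at -0.13 (438.4 and 405.2), which scaling to the median turned to 0.16.

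Among the receptors of R-spondins and the genes of receptor turnover, 6 of 7 were below 0 with a median of -0.04. Lgr6 had the largest difference of the 7, with spots of 123.6 and 98.8, deposited values of 111.1 and 58.0 and a normalized ratio of -0.56, or 1.47-fold lower; subtraction of the local background put it at 0.07. Lgr4 was at -0.05 and Lgr5 at -0.04, with deposited values of 6.2 and 4.3 for Lgr4 and 4.7 and 3.1 for Lgr5, and the second probe of Lgr5 was not above background. Kremen2, a receptor of Dickkopf proteins, was at -0.18, and Znrf3, a ubiquitin ligase that removes Frizzled from the surface, at 0.06.

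Inside the cell, 15 of 16 measured genes of the β-catenin pathway core were above background, 8 of them lower and 7 higher with a median of -0.10. With scaling to the median 5 were lower and 10 higher. Ctnnb1, which encodes β-catenin, was at -0.18 (deposited values 774.8 and 689.8) and at 0.13 with scaling to the median. The kinases Gsk3b and Csnk1a1, which mark β-catenin for destruction, were at 0.39 and 0.35, and Pygo1, a co-factor of β-catenin, at 0.39 with deposited values of 15.6 and 37.7. Subtraction of the local background put Pygo1 at -1.65.

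Genes known as targets of β-catenin were not lower as a group, but the dim ones among them could hardly have been. Of 9 genes with a probe, 8 were above background on at least 1 array, 3 of them lower and 5 higher, with a median of 0.01. With scaling to the median 5 were lower and 3 higher. Axin2, the feedback gene most often used as a readout of the pathway, was dim, with spots of 39.8 and 41.4 and a ratio of -0.01. Its spots lay below the highest negative control on both arrays. Axin2 was at a normalized log2 level of 5.81 in control muscle, and the lowest value above background on the depleted array was 5.73. Sp5 and Ccn4, named here for their low levels, were at 5.76 and 5.78 in control muscle. Lef1, also a transcription factor of the pathway, was not above background on either array. Nkd1 was at -0.05. The 2 genes at least 1.5-fold higher were Tnfrsf19 (0.87, deposited values 58.7 and 155.4), a receptor of the TNF family, and Myc (0.74, 19.7 and 71.5), which many other signals also induce. Genes of planar polarity and of Wnt5a-type signalling stayed close to 0, with 5 of 11 lower, a range from -0.07 (Daam1) to 0.09 (Rhoa) and Vangl1 at -0.04. With the local background column subtracted 9 of 11 were lower, and Daam1 was at 0.63, Rhoa at -0.68 and Vangl1 at -0.92. Over all 85 pathway genes outside the set, 51 were lower and 34 higher, the median was -0.01, and 0 were lower by 1.5-fold or more while 2 were higher by as much.

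**Figure D4:**
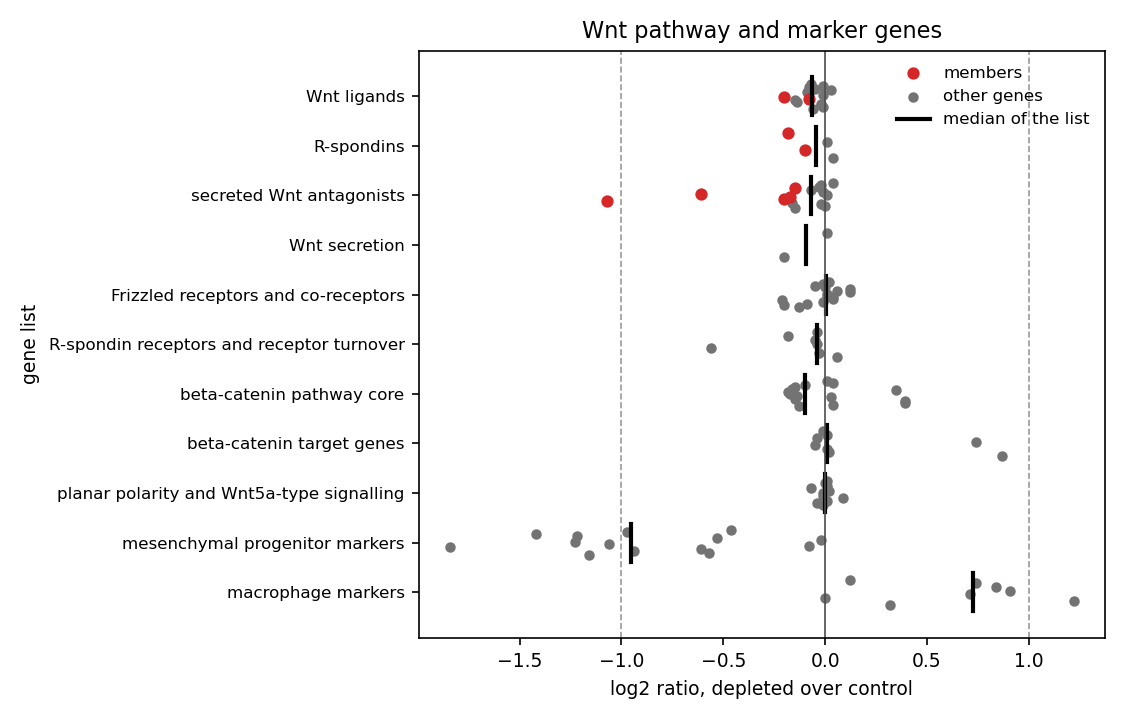
Normalized log2 ratio, depleted over control, of each gene above background on at least 1 array, by list; red points are members, grey points other genes, black bars the median of a list and dashed lines 2-fold. The secreted antagonists hold the 2 members farthest to the left, the receptor lists center near 0, and the mesenchymal progenitor markers have a median of -0.95.

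Markers of the targeted cells were lower too, with a median log2 ratio of -0.95 beside -0.18 for the members. Most of these markers were brighter than the members, and the offset draws the ratios of dim spots toward 0. In deposited values the medians were -1.23 for the 14 markers and -0.58 for the 8 members with both values. Pdgfra itself was at -0.94 (deposited values 273.1 and 116.6). Of 14 measured markers of mesenchymal progenitors 14 were below 0, with ratios from -1.84 to -0.02 and 6 of them at least 2-fold lower. Dpp4 at -0.02 and Hic1 at -0.08, named here as markers close to 0, differed little. The summed deposited value of the 14 was 24029.3 in control and 11693.6 in depleted muscle. Gsn, named for its share, made up 12540.5 and 5485.4 of it. With scaling to the median 12 of the 14 were lower and 2 of them at least 2-fold. Of 6 tenocyte markers 4 were lower, with a median of -0.17 and summed values of 1958.5 and 1816.9. Kera at -1.41 and Tnmd at -0.98, named here for their size, were the 2 at least 1.5-fold lower. Their deposited values were 329.2 and 90.9 for Kera and 173.7 and 60.2 for Tnmd. No tenocyte marker was 1.5-fold higher. Scaling to the median left 2 of the 6 lower and 4 higher. The 8 macrophage markers were all at or above 0, with a median of 0.72. Csf1r, named here as close to 0, was at 0.00 (deposited values 132.7 and 134.5). Summed values of the 8 were 3173.5 and 6961.3. Lyz2, named for its share, made up 1732.3 and 4337.4 of these sums. Thbs4, named likewise, made up 986.4 and 1243.4 of the tenocyte sums. Markers of the labelled tissue were present on both arrays: Acta1, the skeletal muscle actin, named here as a defining marker of the tissue and not for its ratio, had deposited values of 65519.4 and 45415.0, and of 8 myofibre markers 6 were below 0 with a median of -0.10. All 8 were lower in deposited values, with a median of -0.50, and with cyclic loess, with a median of -0.63. In the main setting the medians of the other marker lists were 0.09 for muscle stem cells, 0.11 for endothelium, 0.16 for mural cells, -0.01 for Schwann cells and 0.00 for adipocytes. The part of these cell types in the values of Sfrp4, Frzb and the other members was not tested.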

How the data were processed

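RNA of 1 control and 1 depleted gastrocnemius was amplified, labelled with Cy5 and hybridised to 1-colour arrays, per the labels' protocols. The deposited scanner files hold spot medians at 635 nm, joined from 3 scan gains, and local background medians, both linear intensities without normalization, per the file headers. The processed intensities that the authors deposited follow the spots in a straight line: the spot minus about the blank mean, times 1.27 in control and 0.939 in depleted muscle, with values near the blanks left empty. Scanner, software and genome build: not given in the sources used here.

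Spots were corrected with limma 3.58.1 (normexp, offset 50) in R 4.3.3, log2-transformed and then quantile-normalized across 23473 probes. Python 3.11.15, numpy 2.4.6, pandas 2.3.3 and matplotlib 3.10.9 did the rest. The procedure was tested on simulated data in which only bright spots were changed, so that test does not cover dim genes. The brightest probe stood for a gene. A value below background was replaced by the array's lowest value above background if that was higher, which among the members concerned Rspo1. Symbols came from the platform's annotation (20690 probes with 1 symbol, 2783 with none). Local background was not subtracted, since it tracked the signal of the spot (Spearman correlation over probes 0.941 and 0.972). With 1 array per group no test was possible, and differences were called at 2-fold. Named genes are the members, fixed pathway genes, Pdgfra and up to 3 further genes per list with the largest ratio; any named on other grounds are said to be. The members and lists were chosen with earlier results of these data known.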

Additional observations from a re-analysis of the deposited data

How the results depend on the processing

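Of the 11 alternatives that give a ratio, none turned the sign of Sfrp4, the member past 2-fold in the main setting. Those that changed only the filter or averaged the probes of a gene could not have. The 9 members were all lower with offsets of 50 and 16, without background correction, after subtraction of the blank mean, with cyclic loess and in the authors' processed values. With scaling to the median, or the local background subtracted, 8 of 9 were lower and Rspo3 was the exception. Their median log2 ratio was -0.28 with an offset of 16, -0.22 without background correction, -0.74 with the blank mean subtracted and in the authors' values, -0.38 with the local background subtracted, -0.17 with cyclic loess, -0.14 with scaling to the median, -0.19 without a filter and -0.20 over the 7 members at or above the median intensity. The number of members at least 2-fold lower was 3 with the blank mean or the local background subtracted and in the authors' values, where an empty value was set to the lowest deposited one, 0 with scaling to the median, 2 at 1.5-fold and 0 at 3-fold. In each setting that gave 3, they were Sfrp4, Frzb and Rspo1. Over all genes, 79 were at least 2-fold lower and 91 higher in the main setting. An offset of 16 gave 117 lower and 163 higher genes. Subtracting the blank mean gave 360 and 503, and subtracting the local background 2021 and 1940. Median scaling gave 38 and 216, and the authors' values 411 and 610. At other thresholds, 282 and 363 genes passed 1.5-fold and 17 and 27 passed 3-fold. Of the genes past 2-fold 53.5% were higher, and 85.0% with scaling to the median. No paired analysis was possible because there is 1 sample a group, and for the same reason no sample could be left out. Signal over background limits what can be said of Rspo1, Wnt5a, Axin2 and other dim genes.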
